A study of Mus musculus with 6 samples.

Results

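The Cyp2c genes encode cytochromes P450 of subfamily 2C, membrane enzymes of the endoplasmic reticulum, and 10 of them were examined here in mouse liver: Cyp2c23, Cyp2c29, Cyp2c37, Cyp2c38, Cyp2c39, Cyp2c50, Cyp2c54, Cyp2c55, Cyp2c68 and Cyp2c70. They were taken by gene symbol from a deposited table of read counts for 22183 genes. All 10 were among the 14681 genes that passed the filter on low counts, and the lowest count of any of them in any library was 176. They were selected with their DOX and PBS values already known, so those values are given as a description, with no p-value. The table held 4 more genes of the family, Cyp2c40, Cyp2c65, Cyp2c67 and Cyp2c69, which were not selected on these values and are given beside them.

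The study sequenced mRNA of 6 livers, 3 labelled PBS and 3 labelled DOX. Mice of both groups had the genotype BucheKI/KI-Hep, ate chow and carried the treatment label DDC, and the series describes overexpression of butyrylcholinesterase in hepatocytes. The labels give no age, sex, dose or duration, do not expand DOX, DDC or S2W (the prefix of each title), and name neither the promoter nor the construct behind the knock-in. In liver studies DDC usually means a porphyrin-raising compound that injures bile ducts, and DOX often means doxycycline, which can switch on engineered genes. Every liver shared the knock-in and the DDC label, and there was no liver without them. Whether livers of 1 group are separate animals is not stated, so p-values refer only to the spread among these libraries, and that spread may be technical. The overexpressed gene, named Bche in the tables, checked the labels: it was at 177.2, 177.1 and 205.8 CPM (the count relative to the library total, scaled by the TMM method) in the PBS livers and at 1937.6, 1866.5 and 1763.2 CPM in the DOX livers. That is 9.94-fold higher in DOX, with an edgeR adjusted p of 1.65e-07. The hepatocyte genes Alb, Apoa1, Ttr, Hnf4a and Cps1 were all expressed, and together took 83816.6 to 88350.8 CPM in PBS and 84005.7 to 108772.6 CPM in DOX. In bulk tissue, fewer cells of a type and less RNA per cell cannot be told apart.

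CYP2C enzymes receive electrons from NADPH-cytochrome P450 reductase and oxidise drugs, steroids and fatty acids. With arachidonic acid as substrate several of them make epoxides, lipid mediators that soluble epoxide hydrolase then opens to diols. In liver their transcription is known to depend on the hepatocyte factors HNF4A and C/EBP, and several respond to the xenobiotic receptors CAR (gene Nr1i3) and PXR (gene Nr1i2). Mouse Cyp2c genes arose by repeated duplication, and the copies differ in expression between liver, intestine and kidney.

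In the RefSeq annotation of GRCm38.p6 the 9 genes other than Cyp2c23 lay in 1 block of chromosome 19, from 39006940 to 40187286, a length of 1180.3 kb. The block held 13 family genes of the table and 0 other protein-coding genes. Cyp2c23, an arachidonate epoxygenase also known as Cyp2c44, lay outside it, 3817.7 kb further along the chromosome. The windows around the start sites run from 250 bases before an annotated first transcribed base to 50 bases from it onward. For Cyp2c29, Cyp2c38, Cyp2c55 and Cyp2c67 the start used lay inside the outer gene boundary of the RefSeq positions. Positions within these windows therefore depend on the start chosen. The windows are shown for pairs of close relatives because the levels of such pairs differed from each other. They are RefSeq sequences of GRCm38.p6, written 5′ to 3′ on the strand of the gene. Capitals mark exact matches to the motifs named further on. Cyp2c37 (chr19:39992174-39992473, plus strand) and Cyp2c50 (chr19:40089429-40089728, plus strand) were both higher in DOX, and their windows were identical at 264 of 305 alignment columns (86.6%). Here and below a column with a gap counts as not identical, so offset annotated starts lower the percentage.
Cyp2c37: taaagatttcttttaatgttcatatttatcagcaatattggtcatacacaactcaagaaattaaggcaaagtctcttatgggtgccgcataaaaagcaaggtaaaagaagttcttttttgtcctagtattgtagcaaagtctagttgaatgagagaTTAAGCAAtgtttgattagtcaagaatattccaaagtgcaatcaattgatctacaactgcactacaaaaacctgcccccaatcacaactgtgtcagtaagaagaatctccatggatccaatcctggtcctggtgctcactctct
Cyp2c50: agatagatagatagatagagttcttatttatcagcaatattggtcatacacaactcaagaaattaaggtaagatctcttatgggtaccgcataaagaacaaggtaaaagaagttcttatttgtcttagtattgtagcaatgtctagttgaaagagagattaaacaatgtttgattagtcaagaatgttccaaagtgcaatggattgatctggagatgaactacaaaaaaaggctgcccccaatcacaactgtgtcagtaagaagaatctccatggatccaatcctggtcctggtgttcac

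Cyp2c29 (chr19:39286835-39287134, plus strand) and Cyp2c38 (chr19:39463026-39463325, minus strand) had windows identical at 226 of 322 alignment columns (70.2%). Of this pair only Cyp2c29 passed the threshold between DOX and PBS.
Cyp2c29: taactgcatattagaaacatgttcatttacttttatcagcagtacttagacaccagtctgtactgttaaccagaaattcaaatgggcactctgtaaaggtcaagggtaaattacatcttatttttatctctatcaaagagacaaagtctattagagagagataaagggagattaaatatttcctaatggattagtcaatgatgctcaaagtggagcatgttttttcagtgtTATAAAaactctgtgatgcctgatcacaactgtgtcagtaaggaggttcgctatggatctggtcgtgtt
Cyp2c38: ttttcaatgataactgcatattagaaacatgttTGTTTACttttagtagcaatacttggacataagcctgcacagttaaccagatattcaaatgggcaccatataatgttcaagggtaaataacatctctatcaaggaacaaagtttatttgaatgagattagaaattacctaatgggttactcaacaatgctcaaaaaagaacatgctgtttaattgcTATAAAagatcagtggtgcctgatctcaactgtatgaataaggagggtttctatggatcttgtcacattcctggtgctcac

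Cyp2c68 (chr19:39741052-39741351, minus strand) and Cyp2c67 (chr19:39648993-39649292, minus strand) had windows identical at 230 of 349 alignment columns (65.9%). The annotated starts of this pair are offset, as described further on, and the unpaired bases count among the 349 columns. The levels of these genes moved in opposite directions.
Cyp2c68: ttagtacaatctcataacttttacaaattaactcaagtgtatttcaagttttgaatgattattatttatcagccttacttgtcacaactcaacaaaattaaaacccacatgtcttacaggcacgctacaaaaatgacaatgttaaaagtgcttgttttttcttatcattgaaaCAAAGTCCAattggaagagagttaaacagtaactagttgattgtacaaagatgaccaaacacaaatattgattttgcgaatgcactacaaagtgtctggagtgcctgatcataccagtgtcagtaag
Cyp2c67: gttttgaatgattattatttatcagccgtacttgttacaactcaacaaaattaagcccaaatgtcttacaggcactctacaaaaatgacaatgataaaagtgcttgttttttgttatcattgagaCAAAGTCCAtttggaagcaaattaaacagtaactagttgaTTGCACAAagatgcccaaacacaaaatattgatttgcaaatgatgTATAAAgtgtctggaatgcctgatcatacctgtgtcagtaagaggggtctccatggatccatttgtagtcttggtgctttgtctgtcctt

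Cyp2c55 (chr19:39006769-39007068, plus strand) is shown because it was lower in DOX while 6 of the other 9 were higher.
Cyp2c55: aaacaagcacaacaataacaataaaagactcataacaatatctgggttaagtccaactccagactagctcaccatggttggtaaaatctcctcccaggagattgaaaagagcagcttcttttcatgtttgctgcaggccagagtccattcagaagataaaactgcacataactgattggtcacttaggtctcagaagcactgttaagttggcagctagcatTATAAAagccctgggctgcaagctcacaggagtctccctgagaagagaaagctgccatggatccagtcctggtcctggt

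By coding sequence the genes fell into groups of near copies. Cyp2c37, Cyp2c50 and Cyp2c54 formed a trio, identical to each other at 95.1 to 96.1% of aligned coding positions. Cyp2c38 and Cyp2c39 were 94.2% identical, and Cyp2c29 was 89.1% and 89.5% identical to them. Cyp2c68 was 97.1% identical to Cyp2c67 and 96.5% to Cyp2c69. Cyp2c40 was identical to Cyp2c68 at 1445 of 1560 alignment columns (92.6%). The coding sequence used had 1560 bases for Cyp2c40 and 1473 for Cyp2c68, and unpaired bases count as not identical. Cyp2c55, Cyp2c70 and Cyp2c23 stood alone, with closest relatives at 77.4%, 69.0% and 66.1%. Near copies matter for the counts, since a read that fits several genes may be split, dropped or given to the wrong gene, and how the authors treated such reads is not given in the sources used here. Of the windows of 50 bases along the transcript, the share that also occurs in another family transcript was 43.3% for Cyp2c68, 30.7% for Cyp2c50, 30.1% for Cyp2c37 and 25.7% for Cyp2c54. It was 11.4% for Cyp2c39, 7.45% for Cyp2c38 and 2.08% for Cyp2c29, and 0.514%, 0.0% and 0.0% for Cyp2c55, Cyp2c70 and Cyp2c23. Among the genes outside the selection it reached 72.1% for Cyp2c40, 54.8% for Cyp2c69 and 52.8% for Cyp2c67. With windows of 100 bases the shares were lower, at 19.8% for Cyp2c68, 9.4% for Cyp2c50, 7.59% for Cyp2c54 and 4.7% for Cyp2c37. They were then 0.0% for the other selected genes, and 44.1%, 36.3% and 23.7% for Cyp2c40, Cyp2c69 and Cyp2c67. Levels of these near copies are therefore uncertain, most of all in the group of Cyp2c40, Cyp2c67, Cyp2c68 and Cyp2c69.

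**Figure D1:**
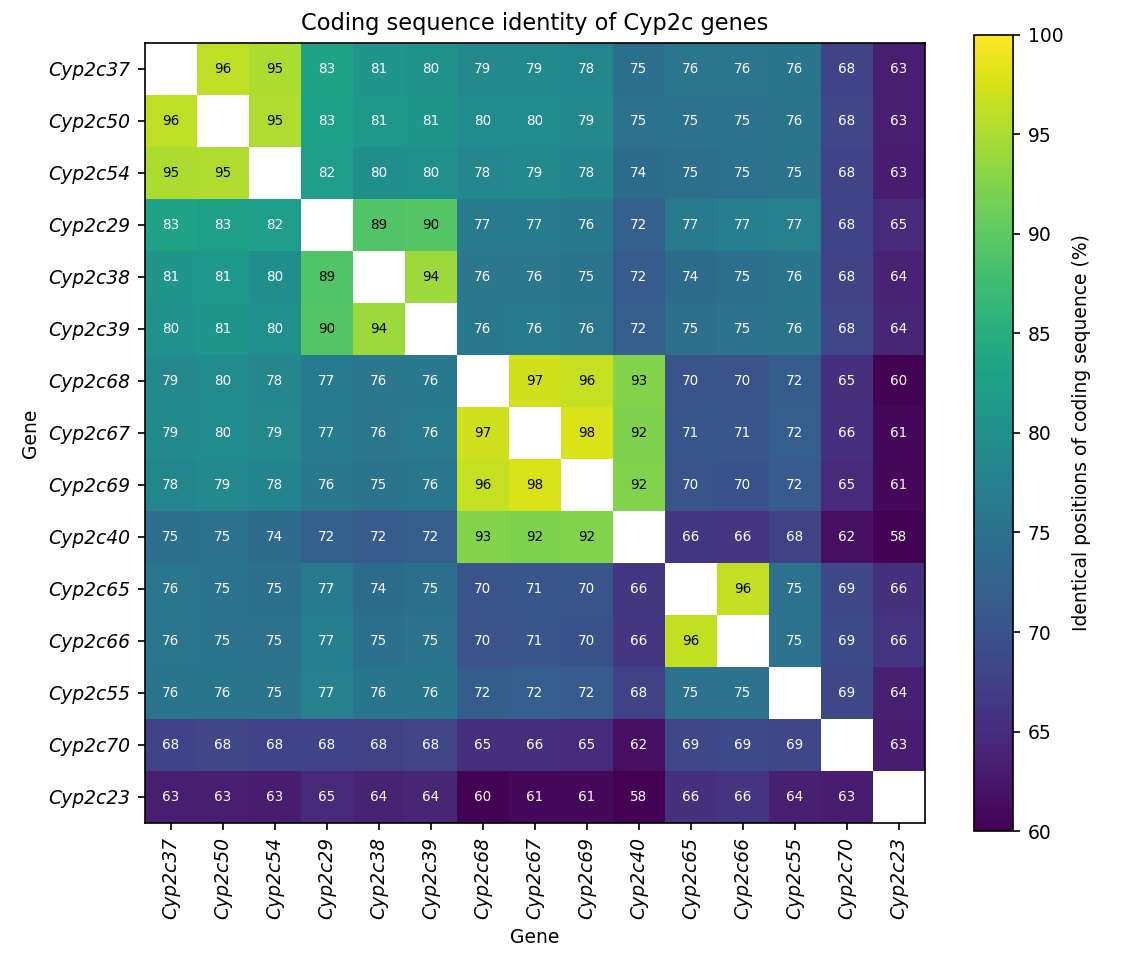
Percent of coding alignment columns, gaps included, that are identical, for each pair of 15 Cyp2c genes (rows and columns), from reference transcripts. The trio Cyp2c37, Cyp2c50 and Cyp2c54, the pair Cyp2c38 and Cyp2c39, the pair Cyp2c65 and Cyp2c66, and the group of Cyp2c68, Cyp2c67, Cyp2c69 and Cyp2c40 stand out with values above 92%.

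Of the 10 selected genes, 6 were higher in DOX, 1 was lower and 3 did not pass the threshold of an edgeR adjusted p under 0.05. Of all 14681 genes tested, 27.5% passed it, 13.5% higher in DOX and 14.0% lower, and nothing is read from the comparison because the genes were chosen on this contrast. The same 6 and 1 were the genes whose 3 DOX values all lay above, or all below, the 3 PBS values, against 21.8% and 22.3% of all genes tested. The median log2 difference, DOX minus PBS, was 0.86 over the 10 genes and -0.006 over all genes tested. With libraries scaled by total count alone, the median over all genes was -0.163, and 1028 genes were called higher and 3429 lower, in place of 1975 and 2062. The 6 higher genes and Cyp2c55 were past the threshold, in the same direction, in all 14 alternative fits.

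**Figure D2:**
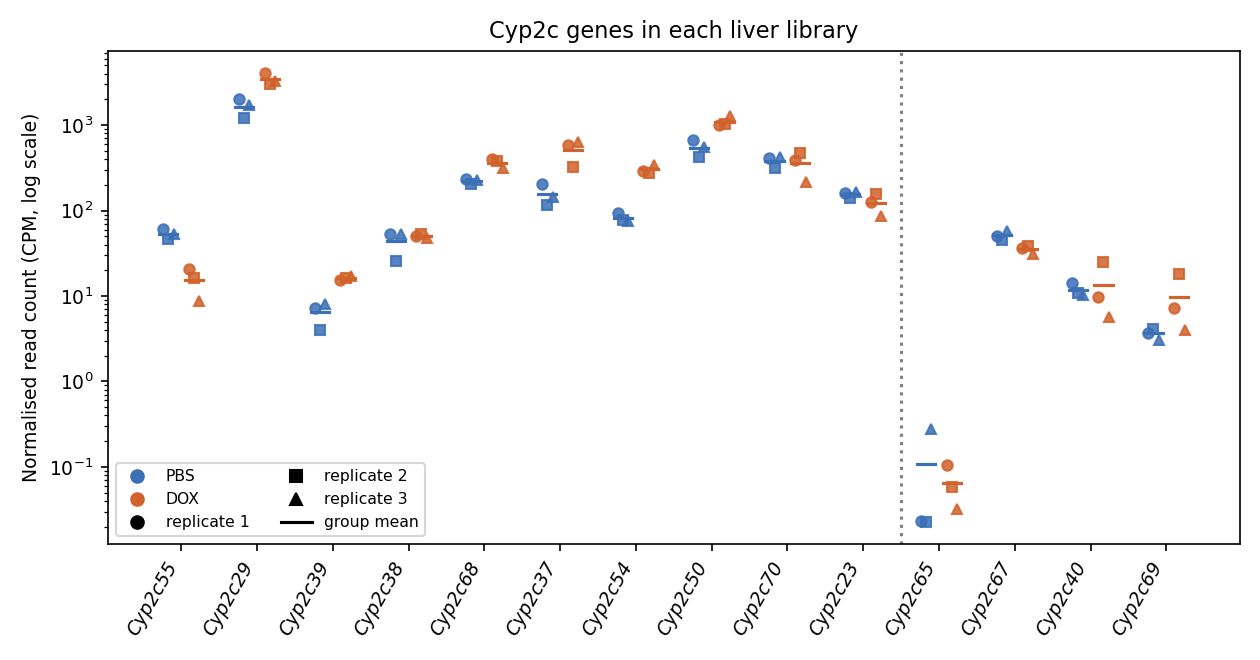
Normalised read count (CPM, log axis) of each Cyp2c gene in the 6 libraries, PBS in blue and DOX in orange, with marker shapes for the replicate numbers and a horizontal bar for the group mean. The 10 selected genes are left of the dotted line in chromosome order. Cyp2c55 is lower in all 3 DOX livers, and Cyp2c29, Cyp2c39, Cyp2c68, Cyp2c37, Cyp2c54 and Cyp2c50 are higher in all 3.

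Within the trio of near copies, whose enzymes act on arachidonic and linoleic acid, all 3 genes were higher in DOX, by different amounts. Cyp2c54 was at 92.9, 78.5 and 75.2 CPM in the PBS livers and at 294.3, 276.4 and 342.8 CPM in the DOX livers. It had the largest log2 difference of the 10 genes, 1.89 (SE 0.13), from 82.2 ± 9.41 to 304.5 ± 34.4 CPM (SD, n = 3 each), or 3.7-fold. Cyp2c37 was at 207.7, 117.1 and 146.2 CPM in PBS and at 592.1, 326.8 and 632.0 CPM in DOX. Its groups did not overlap, but DOX 2 lay well below the other DOX livers, so that the mean was 517.0 ± 165.9 CPM against 157.0 ± 46.2, a log2 difference of 1.72 (SE 0.30). Cyp2c50, the most abundant of the 3, was at 664.7, 423.6 and 549.6 CPM in PBS and at 994.4, 1032.7 and 1271.9 CPM in DOX. Its log2 difference was 1.01 (SE 0.17), 2.01-fold, from 546.0 ± 120.6 to 1099.7 ± 150.4 CPM. Within each library the ratio of Cyp2c54 to Cyp2c50, each in FPKM (the deposited unit that allows for gene length and library total), was 0.222 to 0.301 in PBS and 0.435 to 0.481 in DOX. The ratio of Cyp2c37 to Cyp2c50 was 0.428 to 0.502 in PBS and 0.509 to 0.957 in DOX. Both ratios were higher in every DOX liver than in any PBS liver, though for Cyp2c37 in DOX 2 only by a small margin. These 3 transcripts share stretches of sequence, so part of each count may belong to another of them.

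Cyp2c29 is the best known of the mouse genes, an abundant liver enzyme that is inducible through CAR. It was at 2024.9, 1210.8 and 1715.2 CPM in the PBS livers and at 4064.5, 3017.7 and 3325.6 CPM in the DOX livers. The lowest DOX liver thus lay above the highest PBS liver, and the mean went from 1650.3 ± 410.9 to 3469.3 ± 538.0 CPM (SD, n = 3 each), a log2 difference of 1.07 (SE 0.19). Its near relative Cyp2c39, known as a retinoic acid hydroxylase, was at 7.26, 4.02 and 8.01 CPM in PBS and at 15.45, 16.06 and 17.02 CPM in DOX. Its log2 difference was 1.33 (SE 0.22), from 6.43 ± 2.12 to 16.2 ± 0.787 CPM. Cyp2c38, an arachidonate epoxygenase and the closest copy of Cyp2c39, was at 52.6, 25.8 and 53.5 CPM in PBS and at 51.0, 53.2 and 48.0 CPM in DOX. Its groups overlapped, with PBS 2 alone far below the others, and the log2 difference of 0.21 (SE 0.26) did not pass the threshold in any of the 14 alternatives, which gave -0.06 to 0.37. Within each library the FPKM ratio of Cyp2c39 to Cyp2c38 was 0.0787 to 0.0887 in PBS and 0.172 to 0.202 in DOX. The FPKM ratio of Cyp2c29 to Cyp2c38 was 31.8 to 46.5 in PBS and 56.3 to 79.0 in DOX. In PBS 2, where all 3 genes were at their lowest, both ratios were the highest of the PBS group.

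Cyp2c68 was higher in DOX and its near copy Cyp2c67 was lower. Cyp2c68 was at 232.3, 204.6 and 230.0 CPM in the PBS livers and at 399.5, 380.8 and 313.6 CPM in the DOX livers, a log2 difference of 0.71 (SE 0.13). Cyp2c67, which was not among the selected genes, was at 50.7, 45.6 and 57.7 CPM in PBS and at 36.8, 38.2 and 31.2 CPM in DOX. It fell by 0.53 on the log2 scale (SE 0.12, edgeR adjusted p = 0.00787), lower in 3 of 3 DOX livers than in any PBS liver. The FPKM ratio of Cyp2c68 to Cyp2c67 was 4.13 ± 0.303 in PBS and 9.76 ± 0.46 in DOX (SD, n = 3 each), with a narrow spread in both groups. The other near copies varied more. Cyp2c40 was at 14.3, 10.9 and 10.3 CPM in PBS and at 9.82, 24.7 and 5.62 CPM in DOX, and its log2 difference of 0.18 did not pass the threshold (edgeR adjusted p = 0.849). Cyp2c69 was at 3.71, 4.15 and 3.09 CPM in PBS and at 7.17, 18.0 and 4.03 CPM in DOX, with a log2 difference of 1.41 (SE 0.55, edgeR adjusted p = 0.111). Both genes were highest in DOX 2. Without DOX 3 Cyp2c69 passed the threshold, and over its 14 alternatives the adjusted p was 0.0107 to 0.271 and the log2 difference 0.64 to 1.78. Cyp2c65 was near absence, with 1, 1 and 12 counts in PBS and 4, 2 and 1 in DOX, and was not tested.

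Cyp2c55, known for expression in the intestine as well as in liver and for induction by activators of CAR and PXR, was the 1 selected gene that was lower in DOX. It was at 61.0, 47.1 and 53.7 CPM in the PBS livers and at 20.9, 16.5 and 8.86 CPM in the DOX livers. The groups lay far apart, with means of 53.9 ± 6.98 and 15.4 ± 6.11 CPM (SD, n = 3 each), a log2 difference of -1.80 (SE 0.29) or 3.49-fold lower. The FPKM ratio of Cyp2c55 to Cyp2c29 was 0.0258 to 0.0333 in PBS and 0.00228 to 0.00468 in DOX. Of the intestinal markers, 2 of the 3 tested were also lower. Fabp2, a fatty acid carrier of enterocytes, was at 40.3, 48.1 and 43.1 CPM in PBS and at 11.4, 21.8 and 8.60 CPM in DOX (log2 difference -1.65, edgeR adjusted p = 0.0143, or 0.0649 without DOX 1, the alternatives giving 7.28e-09 to 0.0649). Vil1, a microvillus protein, fell by 1.38 on the log2 scale (edgeR adjusted p = 0.0162, lower in 3 of 3 DOX livers, not past the threshold without PBS 3). Summed over the markers, the level was 45.5 to 53.8 CPM in PBS and 11.9 to 24.4 CPM in DOX, with Fabp2 the largest part in every library. Lgals4, the other marker tested, did not pass the threshold (log2 difference -0.66, edgeR adjusted p = 0.064). Cdx2, the defining transcription factor of intestinal epithelium, was on the marker list but not among the genes of the deposited counts. Whether intestinal cells had any part in the Cyp2c55 result was not tested. The kidney marker Umod was listed at 0 in 5 of the 6 libraries and at 0.0317 CPM in DOX 3.

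Cyp2c70 and Cyp2c23 did not pass the threshold. Cyp2c70 makes muricholic acids, the bile acids that set mice apart from humans. It was at 417.7, 312.6 and 423.1 CPM in the PBS livers and at 388.2, 469.8 and 217.7 CPM in the DOX livers, so the groups overlapped and DOX 3 was the lowest of the 6. Its log2 difference was -0.10 (SE 0.26), and without DOX 3 it was 0.16. Cyp2c23 was at 161.8, 141.7 and 164.9 CPM in PBS and at 125.2, 158.6 and 87.0 CPM in DOX. DOX 2 lay within the PBS range and the other DOX livers below it, for a log2 difference of -0.34 (SE 0.19). Without DOX 2 the difference was -0.54, and with libraries scaled by total count alone it was -0.50, and in these settings it passed the threshold. The remaining 12 alternatives left it short of the threshold. The FPKM ratio of Cyp2c68 to Cyp2c70 was 0.509 to 0.613 in PBS and 0.759 to 1.35 in DOX, with DOX 3 the highest.

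Per length, Cyp2c29 stood far above the rest in both groups, at 980.7 ± 241.8 FPKM in PBS and 1851.3 ± 282.3 FPKM in DOX (SD, n = 3 each). In the PBS livers Cyp2c70 (237.0 FPKM) and Cyp2c50 (196.4) came next and overlapped in range. Then came Cyp2c68 (128.4), Cyp2c37 (90.9) and Cyp2c23 (73.9), of which neighbours overlapped, then Cyp2c54 (48.1), then Cyp2c55 (27.5) and Cyp2c38 (26.3), which overlapped, and last Cyp2c39 (2.19). In the DOX livers Cyp2c50 (355.8 FPKM), Cyp2c37 (269.2), Cyp2c70 (197.7), Cyp2c68 (188.8) and Cyp2c54 (160.0) followed Cyp2c29, and each overlapped with the next. Cyp2c23 (52.3) and Cyp2c38 (27.3) stood apart from their neighbours, and Cyp2c55 (7.02) and Cyp2c39 (4.97) overlapped at the bottom. Cyp2c54 thus went from below Cyp2c23 to above it. The order rests on the gene length behind the deposited FPKM, which differed from that of the GENCODE transcript most for 3 genes: 2932 against 1812 bases for Cyp2c50, 3085 against 1817 for Cyp2c39 and 1760 against 2869 for Cyp2c38. With the GENCODE lengths Cyp2c50 in PBS came to 317.9, above Cyp2c70, and Cyp2c38 in PBS to 16.1 ± 5.54, apart from Cyp2c55 at 28.5 ± 3.75. In DOX these lengths put Cyp2c39 (8.44) above Cyp2c55 (7.28).

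The summed Cyp2c mRNA pool is given as a description, because nearly all of it came from the genes selected on this contrast. Of the genes outside the selection Cyp2c67 had the largest share, on average 1.72% in PBS and 0.62% in DOX. Summed over the 14 family genes of the table the pool was 2222.7, 1475.6 and 1857.4 FPKM in the PBS livers and 3465.2, 2826.2 and 3146.1 FPKM in the DOX livers. As a share of all counts it was 0.355 ± 0.0716% in PBS and 0.604 ± 0.0567% in DOX (SD, n = 3 each). Cyp2c29 made up 49.9 to 54.9% of the summed FPKM in PBS and 56.1 to 62.0% in DOX, so it was the largest part of the pool in every liver. Without Cyp2c29 the sum was 871.2 ± 131.8 FPKM in PBS and 1294.6 ± 48.2 in DOX, and those groups did not overlap either. Of all genes tested, 21.8% were higher in DOX without overlap. The share of Cyp2c70 was 11.8 to 13.6% in PBS and 3.93 to 9.07% in DOX. The shares of Cyp2c23 and Cyp2c55 were also lower in every DOX liver than in any PBS liver, at 4.07 and 1.5% on average in PBS and 1.69 and 0.223% in DOX. The share of Cyp2c54 went the other way, from 2.65 ± 0.474 to 5.11 ± 0.723%. Shares of a sum are tied to each other, and the absolute level of Cyp2c70 did not pass the threshold.

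**Figure D3:**
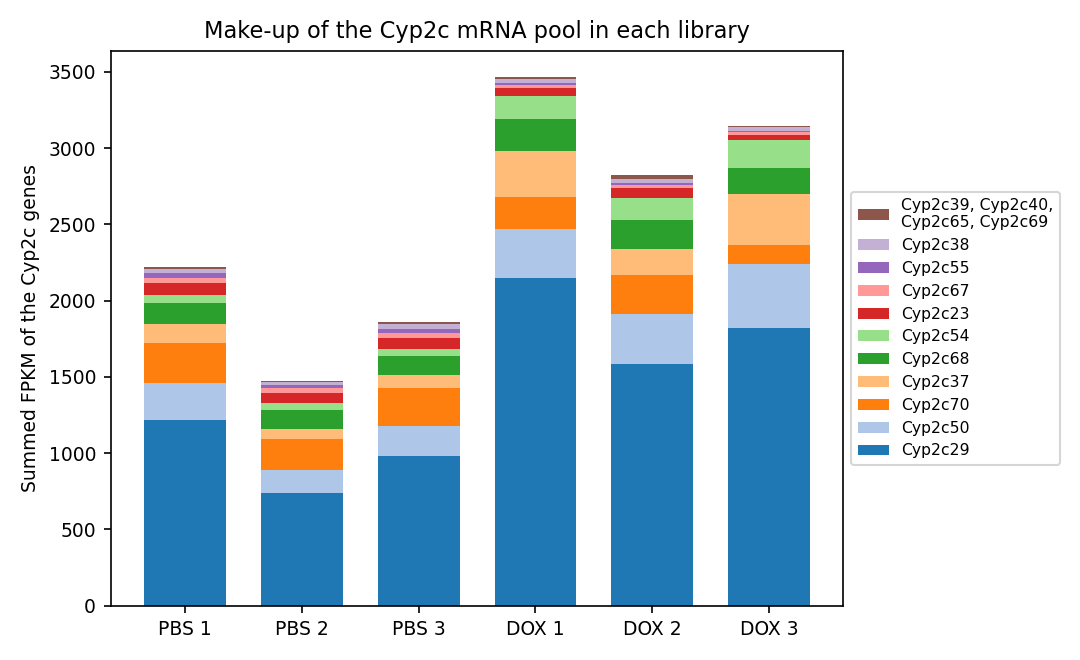
Summed FPKM of the 14 Cyp2c genes in each library, stacked by gene, with Cyp2c29 at the base. The 3 DOX bars reach 2826.2 to 3465.2 and the 3 PBS bars 1475.6 to 2222.7, and the Cyp2c29 segment is the largest in all 6.

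The genes also differed in how they varied between livers of the same group. PBS 2 had the lowest level of its group for 9 of the 10 genes, Cyp2c54 being the exception. DOX 3 had the lowest level of its group for Cyp2c23, Cyp2c38, Cyp2c55, Cyp2c68 and Cyp2c70, and the highest for Cyp2c37, Cyp2c39, Cyp2c50 and Cyp2c54. Deviations from the group mean, on the log2 scale over the 6 livers, had a Pearson correlation of 0.98 for Cyp2c23 with Cyp2c70, 0.96 for Cyp2c55 with Cyp2c68 and 0.92 for Cyp2c68 with Cyp2c70. The near copies Cyp2c38 and Cyp2c39 had 0.96 as well. Cyp2c23 and Cyp2c70 were both at their lowest of the 6 livers in DOX 3. What lies behind these correlations was not tested. For Cyp2c23 with Cyp2c54 the value was -0.64. The positive values named are among the highest of all pairs of tested family genes, whose lowest was -0.77 for Cyp2c37 with Cyp2c69. Each value is a description over 6 libraries that share depth and composition, and centring within groups leaves fewer free values than libraries. Over the 6 livers the genes outside the family with a pattern most like that of Cyp2c29 were Cyp20a1, Mnat1 and Dpep1, with Pearson correlations of 0.996, 0.995 and 0.994 among 12739 genes, of which 174 were above 0.95.

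Genes beside the block did not share a direction. The 10 nearest tested genes, 5 on each side, had a median log2 difference of -0.38, with 2 higher in DOX, 4 lower and 4 not past the threshold. Hells, a chromatin remodeller of dividing cells that lies 36.5 kb before Cyp2c55, fell by 3.27 on the log2 scale (edgeR adjusted p = 0.00034). Its mean was 7.17 ± 3.78 CPM in PBS and 0.742 ± 0.102 in DOX. Plce1 and Aldh18a1 also fell, by 0.66 and 0.74 on the log2 scale (edgeR adjusted p = 0.0123 and 0.0108), although Plce1 lost its call without PBS 3. Pdlim1, an actin-associated protein 35.0 kb past Cyp2c70, rose by 0.49 (edgeR adjusted p = 0.00494), and Slc35g1 rose by 0.75 (edgeR adjusted p = 0.000794). Noc3l, Tbc1d12, Tctn3 and Entpd1 did not pass the threshold, with log2 differences of -0.46, 0.10, 0.21 and -0.30. Around Cyp2c23, 2 of 10 neighbours fell and 8 did not pass the threshold. Erlin1 fell by 0.54 (edgeR adjusted p = 0.0051) and Abcc2 by 0.40 (edgeR adjusted p = 0.042). The call of Abcc2 was lost when any 1 library other than DOX 2 was left out, the adjusted p over the alternatives being 0.00835 to 0.147. Within the block the higher genes did not form 1 unbroken run: Cyp2c55 was lower at its first end, Cyp2c67 lower in its middle, and Cyp2c70 at its last end did not pass the threshold.

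**Figure D4:**
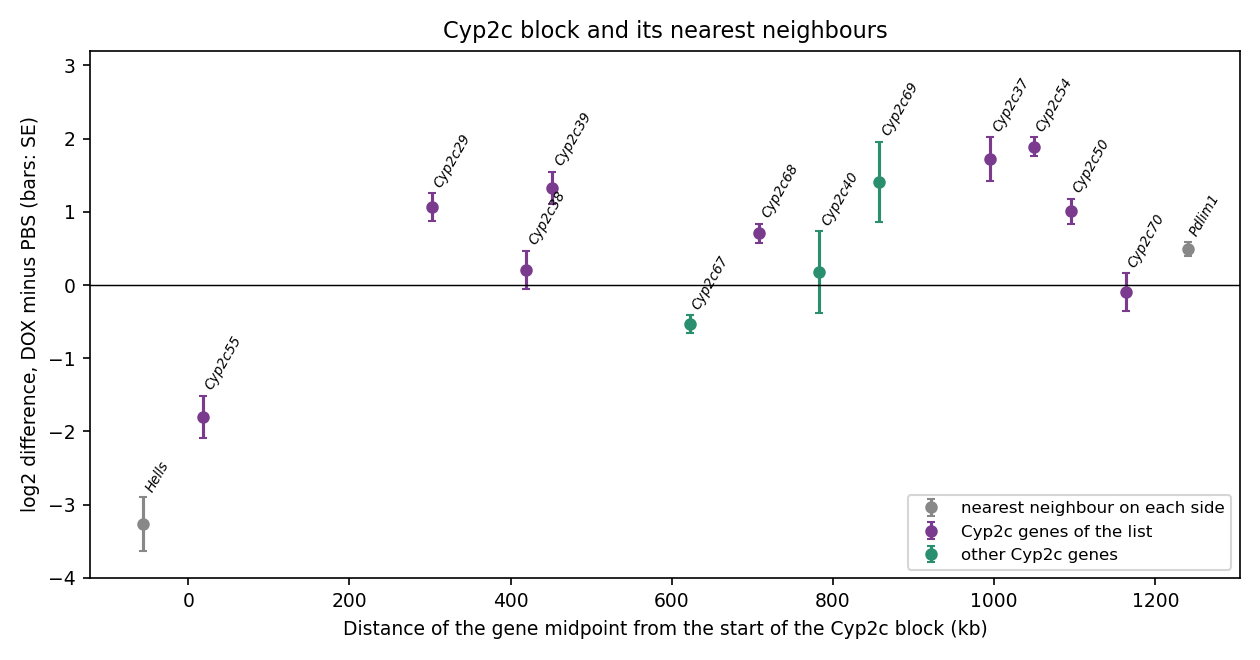
The log2 difference, DOX minus PBS, with its SE as a bar, of each tested gene of the Cyp2c block and of the nearest tested gene on each side, against distance from the start of the block in kb. Purple points are the selected genes, green points other Cyp2c genes and grey points those neighbours, Hells and Pdlim1. Cyp2c37, Cyp2c54 and Cyp2c50 sit together at 1.72, 1.89 and 1.01, and Hells and Cyp2c55 lie side by side at -3.27 and -1.80.

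The start-site windows were searched for motifs of factors known to act on hepatocyte genes. The RefSeq table held 9 windows for 8 of the selected genes, with 2 for Cyp2c39, and Cyp2c54 and Cyp2c23 had none there. Both strands were searched, and positions count from 0 at the annotated first transcribed base used for the window. The HNF4 motif, spelled CAAAGTCCA or CAAAGGTCA, was present in Cyp2c68 at -77 to -69 and in Cyp2c70 at -64 to -56, and in 0.95% of all 32851 windows of the table. With 1 mismatch allowed, 8 of the 9 windows had it, against 15.3% of all windows. TATAAA was present in 5 of the 9 windows, those of Cyp2c29, Cyp2c38, Cyp2c55, Cyp2c70 (on the other strand) and the second of Cyp2c39, and in 13.6% of all. The FOXA motif TGTTTAC was present in Cyp2c38 and in both windows of Cyp2c39, and in 3.65% of all. The C/EBP motif TTGCNNAA was present in Cyp2c37 only, at -94 to -87, and in 10.8% of all, while its form TTGCGCAA was in none of the 9 and in 0.183% of all. TTGCGCAA is a special case of TTGCNNAA, so those counts overlap. Direct repeats of the half-sites AGGTCA or AGTTCA, with a gap of 4 bases (DR4) or of 1 (DR1), and the HNF1 motif, GTTAAT and ATTAAC with 1 base between, were in none of the 9 and in 0.0274%, 0.0822% and 0.00913% of all windows. With 1 mismatch allowed, FOXA was in 8 of the 9 windows (46.8% of all), and TATAAA and TTGCNNAA were in all 9 (69.8% and 82.6%). TTGCGCAA, DR4, DR1 and HNF1 were then still in 0 of the 9 (5.92%, 0.621%, 1.1% and 0.207%). The 9 windows come from related genes, 2 of them from Cyp2c39, so their matches are not separate occurrences. No match says only that these letters are not in this window, and each match is a description of letters.

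Close copies differed in these letters. The Cyp2c67 window had the HNF4, C/EBP and TATAAA motifs at -125 to -117, -85 to -78 and -40 to -35, and in the alignment of the Cyp2c68 window to it, the letters opposite TATAAA were TACAAA. The same letters TACAAA were opposite it in Cyp2c37 and Cyp2c50, starting at -32 and -30. In Cyp2c68 they start 8 bases after the annotated first base, so the annotated starts of these copies are not at the same place relative to the shared sequence, and the windows are offset. Exact TATAAA was in Cyp2c29, which was higher in DOX, and in Cyp2c55 and Cyp2c67, which were lower. It was also in Cyp2c38, which did not pass the threshold. The windows are offset and those of Cyp2c54 and Cyp2c23 are missing, and a tie between letters and levels was not tested.

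Genes that serve or share the pathway were taken from lists. Among 9 genes of electron and heme supply, 3 rose and 6 did not pass the threshold, with a median log2 difference of 0.04. Por, the reductase that feeds P450 enzymes, went from 950.6 ± 168.0 to 1395.3 ± 137.9 CPM (SD, n = 3 each), a log2 difference of 0.55 (edgeR adjusted p = 0.0199). Cyb5a, cytochrome b5, rose by 0.54 (edgeR adjusted p = 0.0257) and Alas1, the first enzyme of heme synthesis, by 0.68 (edgeR adjusted p = 0.00358). The call of Por held in 7 of 14 alternatives and was lost without PBS 1, PBS 2 or DOX 3. That of Cyb5a held in 5 and was lost without PBS 1, PBS 3, DOX 1 or DOX 3. Both were lost with libraries scaled by total count alone. Over the alternatives the adjusted p was 0.00129 to 0.118 for Por and 0.00253 to 0.24 for Cyb5a. Among 12 genes of the arachidonate epoxide pathway, 3 fell and 9 did not pass, with a median of -0.11. They were Cyp2j5, another epoxygenase (log2 difference -1.02, edgeR adjusted p = 0.00796), Ephx1, microsomal epoxide hydrolase (-0.83, 0.00552), and the phospholipase Pla2g6 (-0.60, 0.0167, not past the threshold without PBS 3 or without DOX 1). Ephx2, soluble epoxide hydrolase, was at 396.9 ± 23.0 CPM in PBS and 344.3 ± 15.6 in DOX (log2 difference -0.20, edgeR adjusted p = 0.197). It passed the threshold, lower in DOX, in 4 of 14 alternatives, which were library size alone and the limma fits, with an adjusted p of 0.027 to 0.416 over the 14.

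The genes of the xenobiotic receptors did not pass the threshold in the edgeR fit with TMM scaling. Nr1i3 (CAR) was at 71.2 ± 3.42 CPM in PBS and 69.9 ± 15.2 in DOX (log2 difference -0.03, edgeR adjusted p = 0.906), and Nr1i2 (PXR) at 95.1 ± 4.75 and 74.6 ± 16.0 (-0.35, 0.0784). Nr1i2 passed the threshold, lower in DOX, in 5 of 14 alternatives, among them library size alone and the fit without DOX 2, with an adjusted p of 0.00235 to 0.237 over the 14. Of 24 regulators, 2 rose, 3 fell and 19 did not pass, with a median of -0.08. Hnf4a, a nuclear receptor of hepatocytes, rose by 0.42 (edgeR adjusted p = 0.0292) and Rxra, the shared partner of CAR and PXR, by 0.41 (0.0303). Their calls held in 6 and 5 of 14 alternatives, with adjusted p ranges of 0.00376 to 0.137 and 0.00519 to 0.168. Both calls were lost with libraries scaled by total count alone. Hnf4a also lost its call without PBS 1, PBS 2, DOX 1 or DOX 3, and Rxra when any 1 PBS library or DOX 3 was left out. Foxa1 and Bcl6 fell by 0.61 and 0.69 (edgeR adjusted p = 0.00648 and 0.0186), Bcl6 not past the threshold without PBS 2 or PBS 3, and Ahr fell as well. Of 16 other known targets of CAR and PXR, 5 rose, 3 fell and 8 did not pass, with a median of 0.29. Cyp2b10, the classical CAR target, was at 105.4, 59.5 and 95.8 CPM in PBS and at 1286.2, 1039.4 and 1748.5 CPM in DOX, 15.6-fold higher (edgeR adjusted p = 5.59e-05). Among the PBS livers Cyp2b10 was lowest in PBS 2, as were 9 of the 10 selected genes. Among the DOX livers it was lowest in DOX 2, as were Cyp2c29, Cyp2c37 and Cyp2c54. Of the other higher genes, Cyp2c39 and Cyp2c50 were lowest in DOX 1 and Cyp2c68 in DOX 3. Sult1d1 and Akr1b7 rose by 1.20 and 0.87 on the log2 scale (edgeR adjusted p = 0.000679 and 0.000901), and Aldh1a1 fell by 0.80 (0.002). Cyp3a11, the classical PXR target, had a log2 difference of 0.26 (edgeR adjusted p = 0.226) and is named here after its value was seen.

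**Figure D5:**
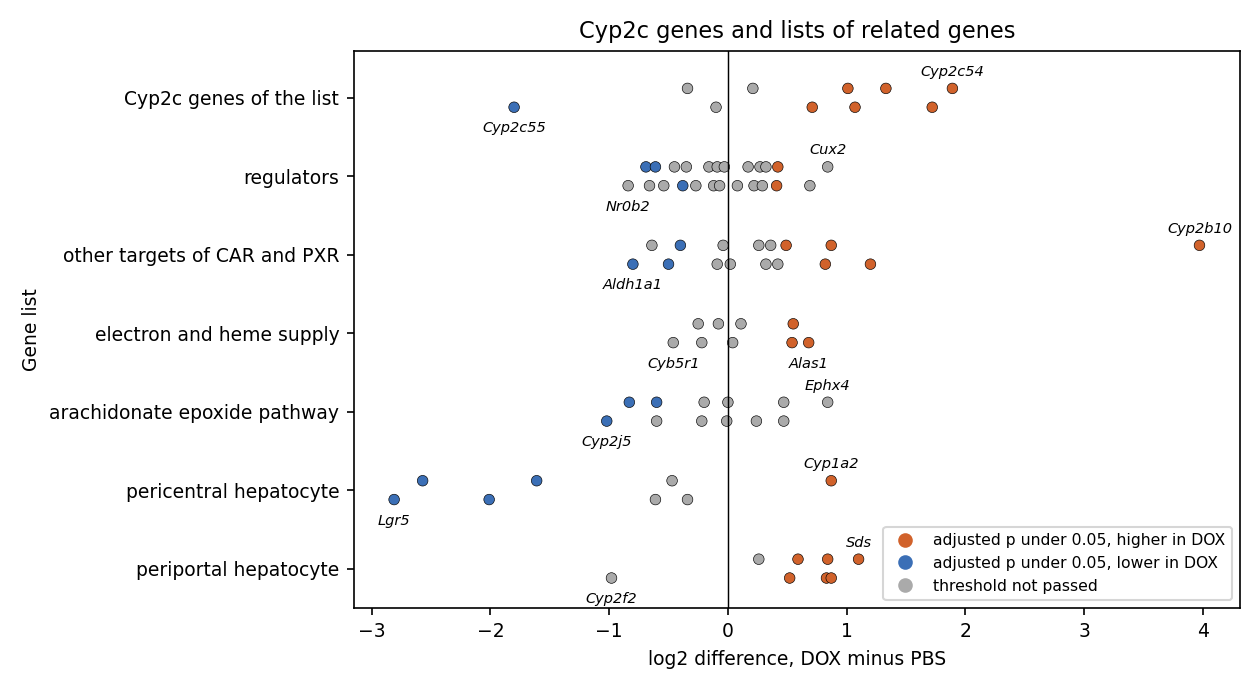
The log2 difference, DOX minus PBS, of each tested gene in 7 lists (rows), with the lowest and highest gene of each list named. Orange and blue points passed the threshold and grey points did not. Cyp2b10 lies furthest right at 3.97, and Lgr5 furthest left at -2.81.

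Several Cyp2c enzymes are most abundant in hepatocytes around the central vein, so zonal markers are given beside them. Of 8 pericentral markers, 1 rose, 4 fell and 3 did not pass the threshold, with a median log2 difference of -1.11. Lgr5, Rgn and Tbx3 fell by 2.81, 2.01 and 1.61 (edgeR adjusted p = 0.00345, 0.0155 and 0.00127), Rgn not past the threshold without PBS 3 or DOX 1, while Cyp1a2 rose by 0.87 (0.0149, lost without DOX 1 or DOX 3). Their summed level was 2636.6 to 3885.4 CPM in PBS and 2314.2 to 2919.1 CPM in DOX. Of 8 periportal markers, 6 rose and 2 did not pass, with a median of 0.71 and a summed level of 5821.5 to 7181.4 CPM in PBS and 10328.6 to 10827.9 CPM in DOX. None of the markers of either list was at 0 in any library. Cyp2c29 and the trio were thus higher in livers where periportal markers were higher and most of the called pericentral markers lower. Of the markers of other cells, 4 of 5 stellate cell genes fell (summed level 1222.8 to 1482.0 CPM in PBS and 737.7 to 1008.5 in DOX). The other stellate cell gene, Dcn, did not pass the threshold (log2 difference 0.43, edgeR adjusted p = 0.0701) and was the largest part of the DOX sum. Of the bile duct genes 1 of 5 fell (747.3 to 906.6 and 515.2 to 747.7). The 4 macrophage genes summed to 475.1 to 496.5 CPM in PBS and 479.2 to 507.9 in DOX. Of 4 endothelial genes 1 rose, and of 2 tested lymphocyte genes 1 fell. The part of these shifts in the Cyp2c values was not tested.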

How the data were processed

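Liver mRNA of 6 mouse samples, 3 PBS and 3 DOX by their labels, was measured by RNA sequencing from SMARTER mRNA-Seq libraries, per the labels' protocols. The authors deposited raw counts per gene symbol, with totals of 32476725 to 41921404 per library, and FPKM for each gene and library. The ratio of counts to deposited FPKM gave 1 length per gene, whole to 0.01 bases in 99.9% of genes, so the FPKM hold no further measurement. The builds named in the submitters' processing notes are GRCm38, mm10 and hg38, without their roles. Aligner, annotation, counting program, strand setting and the handling of reads that fit several genes were (for these libraries) not given in the sources used here. There were 0 columns of other samples and 0 rows without a gene name. Columns were matched to samples by title.

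DOX was compared with PBS by edgeR's quasi-likelihood test (edgeR 4.0.16, R 4.3.3, robust, group as the only term) on all 6 libraries, after filterByExpr with a minimum count of 10 and a minimum total of 15 and with TMM scaling (factors 0.9332 to 1.08, biological coefficient of variation 0.155). Adjusted p-values are Benjamini-Hochberg values over all 14681 tested genes, and the threshold was 0.05. CPM and log2 differences come from this fit, and levels between genes from the deposited FPKM. The procedure was tested on simulated data. Libraries of a group differed beyond sampling noise (chi-square per degree of freedom 30 to 81.3), so none was taken as a copy. PCR duplicates were not considered.

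The 10 genes, the lists, the tests and the rule for named genes were chosen with earlier results of these data known. Named were the 10 genes, the other Cyp2c genes, the 5 nearest tested genes on each side of the block and of Cyp2c23, Bche, Nr1i3, Nr1i2, Hnf4a, Por and Ephx2, up to 4 called genes of each other list by smallest p (2 where none was called), and the 3 genes most like Cyp2c29 among those of at least 1 CPM. A few genes under this rule are left unreported. Genes named only to spell out a count, and the letters aligned to the TATAAA of Cyp2c67, were chosen after their values were seen. Coding identity came from global alignments (Biopython 1.88, match 1, mismatch -1, gap opening -5, gap extension -1) of GENCODE transcripts, and window identity from alignments with the same settings. Both are shares of all alignment columns, gaps included. Protein identity had been planned and no protein sequences were used here. Positions and promoter windows came from RefSeq on GRCm38.p6.

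Alternatives were RLE size factors, library size alone, no filter on low counts, DESeq2 1.42.0, limma 3.58.1 on log2(FPKM + 1) and log2(FPKM + 0.1), the first also without a filter, a replicate block, leaving out each library in turn, and, added after seeing the data, GENCODE transcript lengths for the level order.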

Additional observations from a re-analysis of the deposited data

How the results depend on the processing

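Over 14 alternatives the log2 differences of the 10 genes gave 132 of 140 values that moved by less than 1 SD between replicates, 8 that moved by more and 0 that reversed a called direction. The count of the 10 called higher stayed at 6, and the count called lower was 1 or 2, the second being Cyp2c23 with library size alone and without DOX 2. Counts over all genes moved more. Genes called higher numbered 1975 (1028 with library size alone, 917 and 948 by limma with a pseudocount of 1 and 0.1, 537 by limma with no filter, and 1208 to 2440 with single libraries left out). Genes called lower numbered 2062 (3429 with library size alone, 3202 and 3227 by limma with a pseudocount of 1 and 0.1, and 1305 to 2348 with single libraries left out). Same-numbered livers did not vary together (correlations of their deviations 0.133, -0.122 and -0.166), and not every liver correlated best with its own number, so the numbers were not taken to pair them. With a replicate block 1633 genes were called higher and 1849 lower, and the counts over the 10 genes were again 6 and 1. Among the named genes Cyp2c69 gained a call there, and Abcc2, Cyb5a and Rxra lost theirs. Of 1022 values for 73 other named genes, 872 kept direction and call, 92 lost the call, 27 gained it and 31 reversed, all 31 for genes that did not pass the threshold.

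In the order library size alone, limma with pseudocount 1 (equal without a filter for these genes) and limma with 0.1, reversed log2 differences were -0.059, -0.043 and -0.058 for Tbc1d12, -0.034, -0.033 and -0.038 for Cutc, -0.081, -0.086 and -0.11 for Dnmbp, -0.089, -0.084 and -0.089 for Chuk, and -0.039, -0.038 and -0.046 for Bloc1s2. Cyp2c40 reversed to -0.17 and -0.23 by limma and to -0.065 with the replicate block. With single libraries left out the log2 difference spanned -0.60 to 0.54 for Cyp2c40, -0.17 to 0.20 for Dnmbp, -0.094 to 0.028 for Cwf19l1 and -0.22 to 0.093 for Nr1i3. The cause was not tested. The order of levels kept 8 of 10 ranks in PBS and 6 in DOX with GENCODE lengths. The differences of Cyp2c38 and Cyp2c70 took either sign across the alternatives, so at 3 libraries a group their direction was not resolved.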

Other observations

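Expression of many Cyp genes of mouse liver differs between the sexes, and the labels give no sex, so lists of sex-biased liver genes were read as well. Of 12 tested female-biased genes, 2 rose, 3 fell and 7 did not pass the threshold, with a median log2 difference of 0.36. Cyp17a1, a steroid hydroxylase, rose 1.85-fold (edgeR adjusted p = 0.0139, not past the threshold without PBS 1 or PBS 2). Acot3, a thioesterase of peroxisomes, fell 5.99-fold (edgeR adjusted p = 1.31e-06), and Cyp2b9 and Cyp2b13 fell as well, Cyp2b13 from 0.740 ± 0.187 to 0.221 ± 0.0912 CPM (SD, n = 3 each, edgeR adjusted p = 0.0227, lost without PBS 1, PBS 3, DOX 2 or DOX 3). Of 8 tested male-biased genes, 1 rose, 3 fell and 4 did not pass, with a median of -0.06. Cyp2d9 rose 1.57-fold (edgeR adjusted p = 0.00594), and the urinary protein genes Mup3 and Mup20 fell 7.79-fold and 9.17-fold (edgeR adjusted p = 0.0023 and 0.0278, Mup20 not past the threshold without PBS 3, DOX 1 or DOX 3). C6, a complement component, fell 1.73-fold (edgeR adjusted p = 0.00235). Both lists thus held genes of either direction.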
